A study of Mus musculus with 4 samples.

Results

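The 9 genes described here are the AMP-activated protein kinase (AMPK) subunit genes Prkaa1, Prkab1, Prkab2, Prkag1 and Prkag2 and the upstream genes Stk11, Strada, Cab39 and Camkk2, out of 43430 genes in the count table. Prkag2 was selected on its lower level in the knockout libraries, and the other 8 genes were chosen by their function. The difference of Prkag2 between the groups is therefore given as a description, with no test. All 9 genes passed the filter on low counts and were among the 13281 genes tested.

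AMPK is a heterotrimer of a catalytic α subunit, a scaffold β subunit and a γ subunit that binds AMP, ADP and ATP, and it responds to a fall in cellular energy. It becomes active when its α subunit is phosphorylated, either by LKB1 (gene Stk11), which works in a complex with the pseudokinase STRADα (Strada) and the scaffold MO25α (Cab39), or by the calcium-dependent kinase CaMKK2 (Camkk2). LKB1 is needed for the development of thymocytes, and α1 is the main catalytic isoform of T cells. RNA counts measure neither phosphorylation nor kinase activity.

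RNA was sequenced from thymocytes at the CD4+CD8+ double-positive (DP) stage, that at which T cell receptor α rearranges, sorted by flow cytometry from C57BL/6 mice. The 2 knockout libraries (KO, genotype Uqcrfs1fl/fl; CD4-Cre+) lack a functional gene for RISP, the Rieske subunit of complex III of the respiratory chain, in cells in which the Cre transgene, driven by Cd4 regulatory sequence, has acted. The 2 control libraries carry the genotype label WT, while the series' design text describes heterozygous littermates, so WT is used here as the name of the group. The sources used here give neither the age of the mice nor whether the controls carried the Cre transgene. The samples are separate mice per the design text, with 1 library each. Where values of all 4 libraries follow each other they are in the order WT replicate 1, WT replicate 2, KO replicate 1, KO replicate 2.

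The libraries held 30408863 to 34080516 counts assigned to genes. Levels within a gene are given as CPM, counts scaled to the library size after TMM (trimmed mean of M values) correction. Uqcrfs1 stood at 61.4 and 57.2 CPM in the controls against 15.6 and 18.6 CPM in the knockouts, a log2 change of -1.80 (SE 0.09, adjusted p = 1.78e-04, edgeR's quasi-likelihood test). It is on chromosome 13, away from all 9 genes. Summed over 9 DP markers, among them Cd4, Cd8a and Rag1, the 4 libraries had 17427 to 18633 CPM. Markers of the preceding double-negative stage summed to 134 and 135 CPM in WT and to 161 and 204 CPM in KO replicates 1 and 2, with 6 of the 7 tested markers higher in KO. Of these 7, 3 had an unadjusted p under 0.05 (edgeR's quasi-likelihood test), against 8.40% of all tested genes, and 0 passed over all genes. Such a p was found for 2 of 9 DP, 1 of 10 mature T cell and 1 of 4 tested stromal and epithelial markers. It was found for 0 of the tested myeloid and B cell markers. Myeloid markers summed to 23.1, 20.6, 21.3 and 35.4 CPM, with 4 of the 11 under 1 CPM in every library. Of the 7 tested myeloid markers, 6 were higher in KO. Mature T cell markers summed to 1451, 1444, 1366 and 1392 CPM, although 6 of the 10 tested markers were higher in KO. Stromal and epithelial markers summed to 155, 160, 149 and 148 CPM, with Col1a2 and Krt8 at 0. Of the 4 tested stromal and epithelial markers, 2 were higher in KO. For the mature T cell list and the stromal and epithelial list, both KO sums were below both WT sums, so the sums do not stand for every marker. B cell markers summed to 25.6 to 29.5 CPM, with overlap, and all 4 tested markers were higher in KO. Erythroid markers summed to under 1 CPM in every library, with Hba-a1 and Hba-a2 at 0. The part of these cells in the values below was not tested. In bulk RNA, fewer cells of a type and less RNA per cell cannot be told apart.

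Prkag2 encodes γ2, a nucleotide-binding subunit with several annotated start sites. The gene (ENSMUSG00000028944) spans 24862744 to 25100642 of chromosome 5 in mm10 and is read from the minus strand. GENCODE lists 10 transcripts, and RefSeq (GRCm38.p6) has 3 start windows for it, at 25100642, 24995753 and 24908509. Transcripts from the first site encode the long form of the protein and those from the sites nearer the 3′ end encode shorter forms. The deposited counts sum over all of them, so a change cannot be assigned to one start site. The windows are shown to let the 3 starts be compared, each from 50 bases before the start to 50 bases from it on, 5′ to 3′ on the minus strand, with CG dinucleotides in capitals.
Prkag2 start at chr5:25100593-25100692: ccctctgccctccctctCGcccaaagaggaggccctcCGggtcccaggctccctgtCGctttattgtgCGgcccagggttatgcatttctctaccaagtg
Prkag2 start at chr5:24995704-24995803: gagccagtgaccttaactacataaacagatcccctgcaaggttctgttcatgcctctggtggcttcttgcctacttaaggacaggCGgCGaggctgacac
Prkag2 start at chr5:24908460-24908559: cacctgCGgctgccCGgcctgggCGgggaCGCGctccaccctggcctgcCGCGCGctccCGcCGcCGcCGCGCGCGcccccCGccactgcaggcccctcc
The window nearest the 3′ end of the gene held 16 CG dinucleotides and was 86.0% G or C. The most upstream window held 4 and was 62.0% G or C, and the middle window held 2 and was 53.0% G or C. Over 32817 RefSeq start windows of the same length the median was 3, and 4.95% held 16 or more. The other 8 genes had 7 to 20 CG dinucleotides in their windows.

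Both knockouts had less Prkag2 RNA than both controls, with levels of 48.3, 59.0, 33.7 and 34.5 CPM. The KO libraries lay close together, while the WT libraries lay apart from each other, with WT replicate 1 between WT replicate 2 and the KO libraries. It averaged 53.6 ± 7.59 CPM (SD, n = 2) in WT against 34.1 ± 0.549 CPM (SD, n = 2) in KO, so WT was 1.57-fold above KO. The log2 change was -0.65 with a standard error of 0.09. It was -0.51 when WT replicate 2 was left out and -0.79 when WT replicate 1 was left out, so its size rests in part on which control is used. Without KO replicate 2, the library with the highest myeloid and double-negative marker sums, it was -0.67. Any part of those cells in the level of Prkag2 was not tested. In the authors' deposited table Prkag2 has a log2 change of -0.65 and is marked as lower, a mark carried by 19 of 11536 genes (0.165%). It was not among the 3 genes called by edgeR's quasi-likelihood test. Nothing is read from either, since the same contrast selected the gene.

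**Figure D1:**
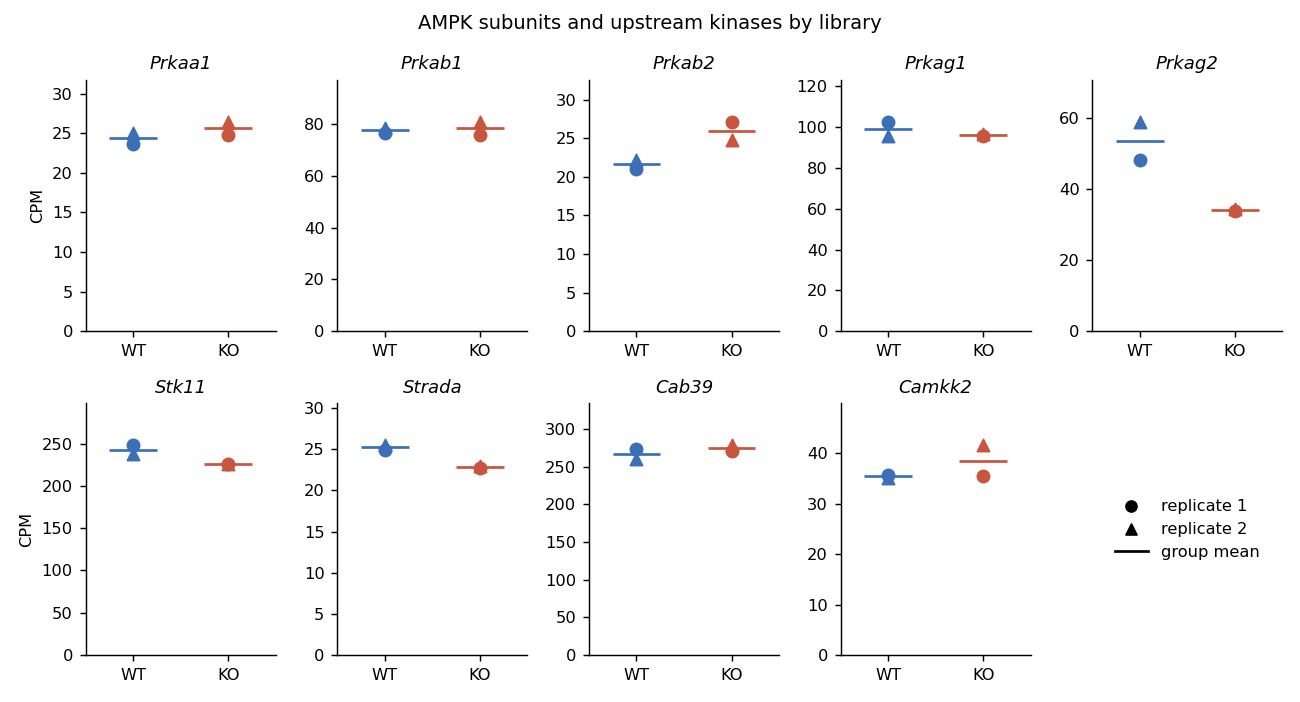
Level of each of the 9 genes in every library, in CPM on axes that start at 0; circles are replicate 1, triangles replicate 2 and lines group means. Prkag2 is at 33.7 and 34.5 CPM in KO against 48.3 and 59.0 CPM in WT, while the groups overlap for Prkaa1, Prkab1, Prkag1, Cab39 and Camkk2.

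None of the other 8 genes passed the test over all genes (edgeR's quasi-likelihood test, Benjamini-Hochberg adjusted p under 0.05), where 0.0226% of all tested genes did. At an unadjusted p under 0.05 there was 1 gene, Prkab2, higher in KO, against 4.40% of all tested genes in the higher direction and 4.01% in the lower. DESeq2 also called 0 of the 8. The WT and KO libraries did not overlap for 3 of the 8 (Prkab2 higher, Stk11 and Strada lower), and for 40.5% of all tested genes. The median log2 change of the 8 was 0.03, and that of all tested genes was 0.00.

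Of the other γ subunit genes, 1 was abundant and 1 was not detected. Prkag1 encodes γ1, the widely expressed γ isoform, and lies on chromosome 15 from 98812798 to 98831508. It was at 102.7 and 95.5 CPM in the controls against 95.7 and 96.7 CPM in the knockouts. The KO libraries lay within the range of the WT libraries, and the log2 change was -0.04 (SE 0.06, adjusted p = 0.849). Without WT replicate 1 it was 0.0071. Prkag3, whose γ3 protein is typical of skeletal muscle, had 0 counts in every library, which allows up to 0.0880 to 0.0988 CPM (3 counts, counting error only).

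Prkaa1 encodes the catalytic subunit α1 and lies on chromosome 15 from 5143861 to 5181899. It stood at 23.7 and 25.03 CPM in the controls against 24.8 and 26.5 CPM in the knockouts, so the groups overlapped. Its log2 change was 0.07 (SE 0.08, adjusted p = 0.814). The gene of the other catalytic isoform, Prkaa2, which is abundant in muscle and liver, had 17 counts over the WT libraries and 38 over the KO libraries. It was at 0.335, 0.198, 0.645 and 0.504 CPM. Its log2 change of 1.09 (SE 0.50) did not pass the test (adjusted p = 0.608) and ran from 0.77 to 1.52 over the fits that leave out 1 library. WT replicate 2 had 6 counts, under the minimum of 10, so Prkaa2 passed the filter on low counts through the KO libraries. The change of Prkaa2 is therefore a description only.

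The β subunits hold α and γ together and bind glycogen. Prkab2, the β2 gene on chromosome 3 from 97658193 to 97673812, was at 21.0 and 22.2 CPM in the controls against 27.1 and 24.7 CPM in the knockouts. Both KO libraries were above both WT libraries, with group means of 21.6 ± 0.856 and 25.9 ± 1.71 CPM (SD, n = 2 per group). The log2 change was 0.26 (SE 0.08), with an unadjusted p = 0.0131 and an adjusted p = 0.526 (edgeR's quasi-likelihood test), and its range over the fits that leave out 1 library was 0.19 to 0.33. Prkab1, the β1 gene, lies on chromosome 5 from 116013586 to 116024508, on the same chromosome as Prkag2 but far from it. It was at 76.6 and 78.4 CPM in the controls against 75.7 and 80.9 CPM in the knockouts. The groups overlapped, and the log2 change was 0.01 (SE 0.06, adjusted p = 0.957), on either side of 0 when single libraries were left out.

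None of the 3 genes of the LKB1 complex passed the test. Stk11, the LKB1 gene on chromosome 10 from 80115803 to 80130682, was at 248 and 237 CPM in the controls against 226.0 and 225.9 CPM in the knockouts. Both KO values were below both WT values, with a log2 change of -0.10 (SE 0.05, adjusted p = 0.615). Strada, which binds LKB1 and holds it in its active shape, lies on chromosome 11 from 106163330 to 106202168. It was at 24.98 and 25.5 CPM in the controls against 22.7 and 23.0 CPM in the knockouts. The groups did not overlap, with a log2 change of -0.14 (SE 0.08, adjusted p = 0.637) and -0.16 to -0.13 with any 1 library left out. Cab39, the scaffold of the complex, lies on chromosome 1 from 85793441 to 85851576 and was at 273 and 260.1 CPM in the controls against 271 and 278 CPM in the knockouts. Its groups overlapped (log2 change 0.04 and 0.0021 to 0.075 with any 1 library left out, SE 0.05, adjusted p = 0.829).

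Camkk2 lies on chromosome 5 from 122731173 to 122779410, in the distal part of the chromosome that carries Prkag2. It was at 35.8, 35.2, 35.6 and 41.6 CPM. KO replicate 2 alone was high, and KO replicate 1 lay within the range of WT. The log2 change was 0.12 (SE 0.08, adjusted p = 0.708), and 0.00 without KO replicate 2. The myeloid and double-negative marker sums were also highest in that library, and a link of either with Camkk2 was not tested.

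Levels of different genes were compared per length, as RPKM, which is the CPM value per kb of merged exons. Averaged over the 4 libraries, Stk11 was highest at 51.2 RPKM, followed by Prkag1 at 44.9, Cab39 at 38.3 and Prkab1 at 25.4 RPKM. A second tier held Prkag2 at 6.77 RPKM, Prkaa1 at 5.37, Prkab2 at 4.67, Strada at 4.32 and Camkk2 at 3.39 RPKM. In WT, Prkag2 (8.27 ± 1.17 RPKM; SD, n = 2) was above Prkaa1 (5.23 ± 0.207 RPKM) in both libraries. In KO, Prkag2 (5.26 ± 0.0847 RPKM), Prkaa1 (5.50 ± 0.261 RPKM) and Prkab2 (5.09 ± 0.336 RPKM) did not differ beyond their spread by this length. The order within each tier depends on the length used. With the longest annotated transcript, Cab39 (71.2 RPKM) came before Stk11 (64.0 RPKM), and Camkk2 (7.62 RPKM) came after Prkag2 (13.2 RPKM), ahead of Strada (7.10 RPKM) and Prkaa1 (5.37 RPKM). By that length Prkag2 was also above Prkaa1 and Prkab2 in KO, at 10.2 ± 0.165, 5.50 ± 0.261 and 5.18 ± 0.342 RPKM (SD, n = 2 each).

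Within each subunit family 1 gene supplied most of the transcripts. Prkaa1 made up 98.5% to 99.5% of the α transcripts by RPKM, and Prkab1 made up 82.3% to 85.8% of the β transcripts. Prkag1 made up 86.4% and 82.8% of the γ transcripts in WT and 89.4% and 89.3% in KO. The Prkag2 share was 13.6% and 17.2% in WT and 10.6% and 10.7% in KO, with means of 15.4% ± 2.51 and 10.6% ± 0.0802 (SD, n = 2 per group). With the longest transcript as length the shares of Prkag2 were 21.2% in WT and 14.9% in KO on average. The γ sum was 54.6 and 53.0 RPKM in WT and 49.2 and 49.8 RPKM in KO. These shares contain the gene selected for its difference and are given without a test. The Prkab2 share of β transcripts was 14.2% and 14.6% in WT and 17.7% and 15.5% in KO.

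**Figure D2:**
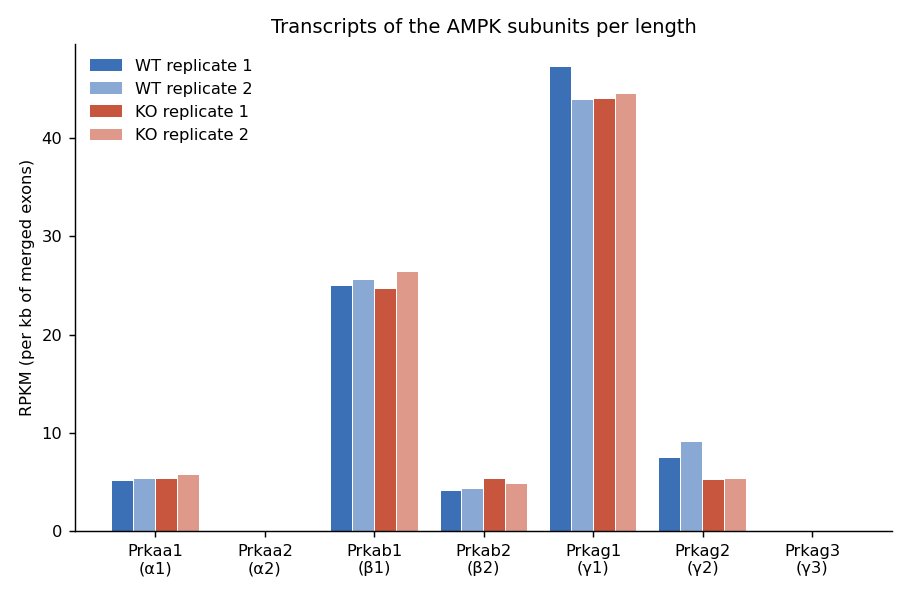
Transcript level of the 7 AMPK subunit genes in each library, in RPKM (per kb of merged exons), with 1 bar a library. Prkag1 and Prkab1 are highest, Prkag2 is at 7.45 and 9.10 RPKM in WT and at 5.202 and 5.32 RPKM in KO, and Prkaa2 and Prkag3 are at or near 0.

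Of 49 other genes of the pathway, 44 were tested, and 0 passed over all genes in edgeR's quasi-likelihood test or in DESeq2; 1 had an unadjusted p under 0.05. The shares of all tested genes to set the counts of each list against are 8.40% at an unadjusted p under 0.05 and 0.0226% called. Of 7 other upstream kinases and partners, all tested, 3 were higher and 4 lower in KO, with a median log2 change of -0.01 (0.017 without WT replicate 1) and 0 at an unadjusted p under 0.05. Tab1, which encodes the binding partner of the kinase TAK1, was at 84.3, 76.9, 74.2 and 73.5 CPM (log2 change -0.13, SE 0.06, adjusted p = 0.618, and -0.063 without WT replicate 1). Ppm1e, which encodes a phosphatase that acts on AMPK, was at 22.6, 24.6, 28.7 and 25.2 CPM (log2 change 0.19, SE 0.09, adjusted p = 0.618, and 0.090 without KO replicate 1). Camkk1, the gene of the kinase most closely related to CaMKK2, stood at 36.4 ± 1.34 RPKM in WT and 38.2 ± 1.19 RPKM in KO (SD, n = 2 per group), above Camkk2 at 3.25 ± 0.0381 and 3.53 ± 0.392 RPKM. For the scaffold pair, Cab39 was at 37.7 ± 1.34 RPKM in WT and Cab39l at 2.34 ± 0.143 RPKM.

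Kinases of the AMPK family that LKB1 also activates were measured for 9 of 12 genes; Mark1, Brsk1 and Brsk2 had too few counts to test. Of the 9, 6 were higher and 3 lower, and 1 (11.1%) had an unadjusted p under 0.05, a share near the 8.40% of all tested genes. The median log2 change of the 9 was 0.06, and -0.018 without WT replicate 1. The 1 gene was Sik2, a salt-inducible kinase, at 55.4 and 57.1 CPM in the controls against 61.6 and 62.9 CPM in the knockouts. Its log2 change was 0.15 (SE 0.06, unadjusted p = 0.0292, adjusted p = 0.551, edgeR's quasi-likelihood test). Sik1, of the same family, was at 14.3, 16.9, 17.6 and 17.9 CPM (log2 change 0.19, SE 0.10, adjusted p = 0.653, from 0.067 without WT replicate 1 to 0.31 without WT replicate 2).

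Among substrates and effectors of AMPK, 27 of 28 listed genes were tested, and Ppargc1a had too few counts. Of the 27, 15 were higher and 12 lower, 0 had an unadjusted p under 0.05, against 8.40% of all tested genes, and the median log2 change was 0.03. That median was -0.0049 without WT replicate 1 and -0.029 without KO replicate 2, so its sign rests on single libraries. Txnip, which limits glucose uptake, was at 847, 785, 740.4 and 773 CPM (log2 change -0.11, SE 0.05, adjusted p = 0.625, and -0.057 without WT replicate 1). Fnip1, a folliculin partner that AMPK phosphorylates, was at 40.4, 44.8, 46.1 and 47.8 CPM (log2 change 0.14, SE 0.07, adjusted p = 0.629, and 0.062 without WT replicate 1). The lists hold substrates of the kinase, whose phosphorylation counts of RNA do not show.

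**Figure D3:**
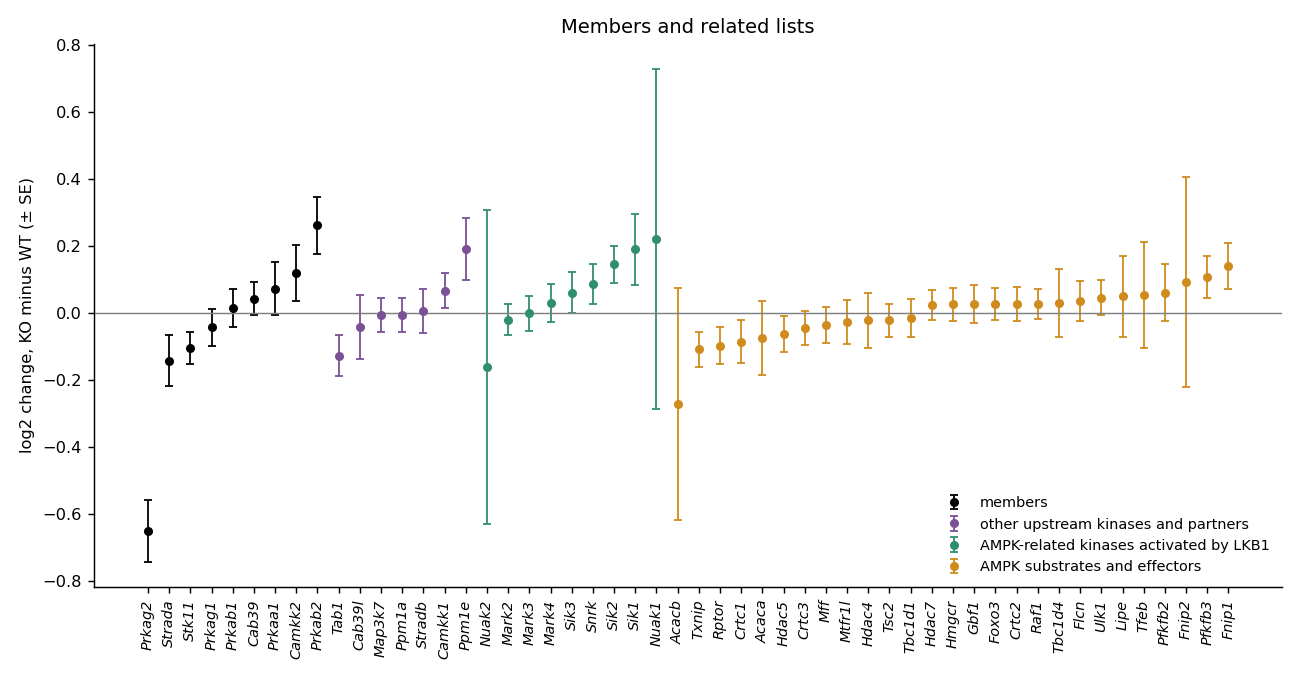
Log2 change (KO minus WT) with its standard error for the 9 genes (black) and the tested genes of 3 related lists. Prkag2, at -0.65, lies apart from the other 8, which run from -0.14 to 0.26. Prkag2 was selected on this contrast.

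Around Prkag2 on chromosome 5, a larger share of genes than elsewhere had a low unadjusted p, in both directions. Some of them, Srpk2 and Galnt11 among them, were known from earlier results of these data. Within 2 Mb of the midpoint of Prkag2, 33 other genes were tested, and 12 of them (36.4%) had an unadjusted p under 0.05, against 8.40% of all tested genes. The 12 include Srpk2 and Galnt11. They also include Smarcd3 and 1500035N22Rik, which each passed the filter on low counts through the group in which they were higher. No share was computed without these genes, so the count is a description only. Of the 12, 7 were lower and 5 higher in KO, and 0 passed over all genes in edgeR's quasi-likelihood test, while DESeq2 called 2, Galnt11 and 1500035N22Rik. Counting all 33, 21 were lower and 12 higher, and the WT and KO libraries did not overlap for 19, against 40.5% of all tested genes. The median absolute log2 change was 0.15 in this window and 0.08 over all tested genes. Within 5 Mb, which includes this window, 13 of 55 genes (23.6%) had an unadjusted p under 0.05. On chromosome 5 beyond 5 Mb from Prkag2, 79 of 761 genes (10.4%) had such a p, and off this chromosome 1023 of 12464 (8.21%) did. Fewer genes in the window had such a p when either KO library was left out. Those fits hold 1 KO library, and their shares over all genes are not given here. The median log2 change of the 33 genes was -0.03, and -0.04 to -0.02 with any 1 library left out.

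The genes next to Prkag2 had unlike values. Rheb, which encodes the activator of mTORC1 and is the nearest tested protein-coding gene on the side of lower coordinates, was at 60.9 and 54.5 CPM in the controls against 58.8 and 58.4 CPM in the knockouts (log2 change 0.02, SE 0.07). Galnt11, the nearest on the other side, encodes an enzyme that starts O-linked glycosylation. It was at 24.2 and 31.9 CPM in the controls against 15.7 and 14.8 CPM in the knockouts, a log2 change of -0.88 (SE 0.13, unadjusted p = 9.31e-05, adjusted p = 0.124, edgeR's quasi-likelihood test). It passed an adjusted p of 0.05 with DESeq2, edgeR's likelihood ratio test, no filter, the replicate block and each library left out. As with Prkag2, WT replicate 1 lay between WT replicate 2 and the KO libraries. The same order was seen in Srpk2, a kinase gene of splicing factors, at 182, 279, 112.4 and 111.8 CPM (log2 change -1.04, SE 0.25, adjusted p = 0.538). Klhl7, which encodes a ubiquitin ligase adaptor, followed at 13.6, 20.3, 11.7 and 10.3 CPM, and the potassium channel gene Kcnh2 at 156, 179, 140.4 and 134 CPM.

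Of the remaining genes at an unadjusted p under 0.05 in the window, 5 were higher in KO. Smarcd3, a chromatin remodelling subunit gene, had 3 and 2 counts in the WT libraries, at or under the floor of 3 counts, and 17 and 15 in the KO libraries. It is 1 of the 12 and passed the filter on low counts only through the KO libraries, so no fold is given for it. Wdr86 and Gm26648, an antisense transcript, had log2 changes of 1.03 and 1.15, both at under 4 CPM in every library. That of Gm26648 was 0.49 without KO replicate 1 and 1.62 without WT replicate 1. Pus7, a pseudouridine synthase gene, was at 10.9 and 10.6 CPM in the controls against 12.9 and 14.0 CPM in the knockouts, and Fam126a was at 22.9, 18.7, 24.2 and 26.95 CPM. Tomm7, a mitochondrial import gene, had a log2 change of -0.15 (-0.074 without WT replicate 1), and 1700096K18Rik, a long non-coding RNA, one of -0.89. Gm26648 and its neighbours on the other strand are uncertain, because the sources used here do not state the strand setting of the counting.

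1500035N22Rik, a long non-coding RNA, lies inside Prkag2 on the opposite strand, from 24985842 to 24998168, and spans the middle start site of Prkag2. It had 42, 82, 14 and 6 counts, and both KO libraries were below both WT libraries. It passed the filter on low counts through the WT libraries. The log2 change was -2.70 (SE 0.51, unadjusted p = 5.56e-04, adjusted p = 0.284, edgeR's quasi-likelihood test). Prkag2 itself had 3375 counts over the WT libraries and 2243 over the KO libraries, far above 1500035N22Rik. The change of 1500035N22Rik passed with DESeq2 and did not pass with the replicate block or without WT replicate 2. The antisense genes Prkag2os1 and Prkag2os2 had 0 and 3 counts over the WT libraries and 2 and 14 over the KO libraries. Without a stated strand setting, reads from Prkag2 and from these 3 genes cannot be told apart where the genes overlap, in exons or in introns of Prkag2. Whether the other differences on chromosome 5 bear on the level of Prkag2 was not tested. The labels give the strain of all 4 mice as C57BL/6 and nothing on backcrossing, and whether the mice differed in genotype around Prkag2 was not tested.

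**Figure D4:**
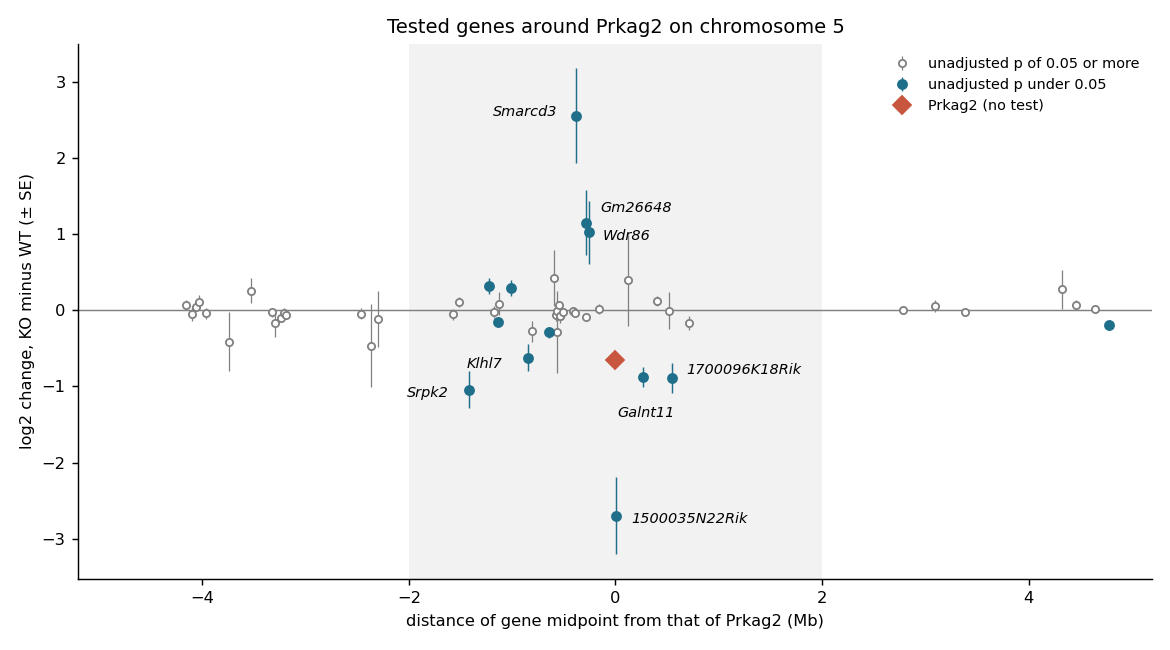
Log2 change (KO minus WT) with its standard error for each tested gene within 5 Mb of Prkag2, against the distance between gene midpoints; the shaded band is the window of 2 Mb. Filled points, with an unadjusted p under 0.05, number 12 in the band, 7 below 0 and 5 above it. The highest, Smarcd3, and the lowest, 1500035N22Rik, rest on few counts in 1 of the groups.

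The 5 genes most like Prkag2 across the 4 libraries were Mrpl33, Tle6, Abhd1, Hist3h2ba and Alyref2, in that order. Likeness was the Euclidean distance between log2 CPM values centred on each gene's mean, over 9579 genes with a mean of at least 5 CPM. With 4 libraries and a gene selected for its difference, this is a description only. Mrpl33, a mitochondrial ribosomal protein gene, was at 65.6, 77.5, 47.8 and 49.3 CPM, at a distance of 0.0988. Tle6, of the TLE co-repressor family, was at 27.2, 30.2, 18.8 and 18.9 CPM, at a distance of 0.107. Abhd1, which encodes a hydrolase, was at 11.3, 13.1, 8.18 and 9.33 CPM. In Mrpl33, Tle6, Abhd1 and Alyref2, WT replicate 2 was highest and both KO libraries were lowest, and so it was in Hist3h2ba. The selection by likeness to Prkag2 favours this order. Mrpl33 and Abhd1 lie on chromosome 5, from 31596935 and from 30950066, outside the window of 2 Mb around Prkag2. Both are among the genes counted above as beyond 5 Mb, with an unadjusted p under 0.05 (edgeR's quasi-likelihood test). Their selection by likeness to Prkag2 favours a low p in this contrast, so nothing is read from it. The histone gene Hist3h2ba (log2 change -0.48) and Alyref2, an mRNA export factor gene (-0.85), were at distances of 0.236 and 0.242 and lie on chromosomes 11 and 1.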

How the data were processed

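The deposited data are raw read counts per Ensembl gene from 4 libraries, 1 file each plus 1 series table with the same values (0 differing cells). The submitters' processing notes name Trimmomatic 0.33, STAR 2.5.2, HTSeq, edgeR and the build mm10. Neither the HTSeq mode nor its strand setting is given in the sources used here. The authors' deposited comparison holds CPM values scaled by library total, log2 fold changes and log2 mean CPM by the authors, their p-values, and a likelihood ratio score, per the file headers. The members were found by symbol in that table. Its gene length is often the sum over transcripts (10159 of 19697 genes with more than 1 transcript), so merged exons of GENCODE vM21 (mm10) were used instead.

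The main test was edgeR 4.0.16's quasi-likelihood F test (R 4.3.3; filterByExpr with a minimum count of 10 and a minimum total of 15, TMM, robust estimation, group as the only term), adjusted over 13281 genes by Benjamini-Hochberg. Log2 changes are KO minus WT; SE is the absolute change over the square root of F. The fit was tested on simulated data. Replicates differed by more than sampling noise (chi-square per degree of freedom 9.00 for WT and 4.82 for KO). Against KO replicates 1 and 2 it was 10.1 and 12.1 for WT replicate 1, and 5.46 and 7.74 for WT replicate 2. By this measure WT replicate 2 was nearer to either KO library than to WT replicate 1. DESeq2 1.42.0 was an alternative, beside other size factors, the likelihood ratio test, no filter, each library left out and a replicate block. The members and lists were chosen with earlier results of these data known. Named genes were Uqcrfs1, the members, Prkaa2 and Prkag3, from each list those with an unadjusted p under 0.05 (at most 6) or else the 2 smallest, genes within 2 Mb of Prkag2 with such a p and the nearest protein-coding gene on each side, and the 5 nearest patterns. Other genes are named for their level or position. The shares of chromosome 5 within and beyond 5 Mb of Prkag2 were added after the data were seen. 1 DP marker of the list is not reported here and was left out of the sum.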

Additional observations from a re-analysis of the deposited data

How the results depend on the processing

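With 2 libraries a group, p-values rest on a spread estimated across genes. The number of genes called was 3 in the main test, 3 with DESeq2's size factors in edgeR, 24 with DESeq2, 101 with edgeR's likelihood ratio test, 191 without a filter on low counts, and 41 to 365 in the fits that leave out 1 library, which assume that the lone library varies as the other group does. None of the 8 members other than Prkag2 was called under any of these settings or with the block. A fit with the replicate number as a block called 27 genes. The labels do not say that a shared number pairs the mice, and same-numbered libraries deviated together only weakly (r = 0.07 across 13281 genes). The log2 change of Prkag2 was -0.66 to -0.65 under the other tools and settings, -0.65 with the block, and -0.79 to -0.51 (-0.51 without WT replicate 2) with any 1 library left out. The difference in the Prkag2 share of γ transcripts was -4.77 percentage points, and -6.55 to -3.00 with any 1 library left out. Genes within 2 Mb of Prkag2 with an unadjusted p under 0.05 numbered 12, 9 to 13 under the other tools and settings, and 7 to 12 (7 without KO replicate 2) with any 1 library left out. Signs turned when single libraries were left out for Prkab1 (-0.035 to 0.060), Prkag1 (-0.098 to 0.0071) and Rheb (-0.061 to 0.099). So did the medians of the other upstream kinases and partners (-0.018 to 0.017), the kinases that LKB1 also activates (-0.018 to 0.13) and the substrates and effectors (-0.029 to 0.023). Genes under about 1 CPM, such as Prkaa2 and Smarcd3, rest on few counts.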
